A study of Mus musculus with 11 samples.

Results

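Proteasome genes were followed in muscle of mice with 1 beta-catenin allele that can be made stable. The family was taken as every symbol present in both count tables that begins with Psma, Psmb, Psmc or Psmd followed by a number, which gave 40 of 24421 symbols. They comprise 7 alpha and 7 constitutive beta subunits of the 20S core, the 3 immunoproteasome beta subunits, 2 tissue-specific core subunits, 17 subunits of the 19S regulatory particle, 3 assembly chaperones of its base (Psmd5, Psmd9 and Psmd10) and Psmc3ip, a meiotic recombination factor that shares only the name. The 17 regulatory particle subunits were the 6 base ATPases, 3 base subunits without ATPase activity (Psmd1, Psmd2 and Psmd4) and 8 lid subunits.

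The WT/flox mice (WTlFlox in the labels) carried a tamoxifen-inducible Cre recombinase at Hic1 (Hic1CreERT2), a tdTomato reporter and, beside a WT allele, 1 allele of Ctnnb1, which encodes beta-catenin, with exon 3 flanked by loxP sites. WT mice are labelled by that locus alone; their progenitors were sorted for tdTomato too, and whether the WT mice that gave whole muscle carried Cre is not stated in the labels. Mesenchymal progenitors, sorted from resting hindlimb muscle as CD45-, CD31-, Sca1+, tdTomato+ and alpha7- cells, came from 3 WT/flox and 3 WT animals 14 days after tamoxifen, except that WT/flox animal 74A3 was labelled day 56. The labels give no age, pooling or number of litters. Whole lysate of the tibialis anterior muscle came from 3 WT/flox and 2 WT animals at day 56. The deposited sample table gives WT/flox animal 74A1 and WT animal 74A2 as female and the other animals as male. All muscle libraries thus came from males. Cre acts only in cells of the Hic1 lineage and their descendants, so other cells of a whole muscle keep the unrecombined allele. Removal of exon 3 leaves a transcript that encodes a protein resistant to degradation, and the count of the whole Ctnnb1 gene does not check it: Ctnnb1 differed by a log2 fold change of -0.26 in progenitors (SE 0.17, edgeR adjusted p = 0.673) and by 0.00 in muscle (SE 0.15, edgeR adjusted p = 0.997).

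The proteasome degrades proteins tagged with ubiquitin. The alpha and beta rings stack into a barrel, and 3 beta subunits hold the active sites: Psmb6 (caspase-like), Psmb7 (trypsin-like) and Psmb5 (chymotrypsin-like). In immune cells, and in other cells exposed to interferon, Psmb9, Psmb10 and Psmb8 take the places of Psmb6, Psmb7 and Psmb5 in newly built cores, which alters the peptides made for presentation on MHC class I. The regulatory particle recognises, unfolds and feeds in the substrates. In mammalian cells, the transcription factor Nfe2l1 (Nrf1) raises transcription of proteasome genes through antioxidant response elements when proteasome activity is limiting. The proteasome is a main route by which muscle fibres break down contractile proteins, and beta-catenin itself is one of its substrates.

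The promoters of 2 constitutive and 2 immunoproteasome catalytic subunits are shown because each immunoproteasome subunit and the one it replaces moved in opposite directions between sorted cells and muscle. Each sequence runs 5′ to 3′ on the gene's strand, from 250 bases before to 50 bases after the annotated start, and is taken from RefSeq on GRCm38.p6. Capitals mark the antioxidant response element core TGACNNNGC in Psmb5 (chr14:54617946-54618245, minus strand) and Psmb6 (chr11:70525107-70525406, plus strand). In Psmb8 (chr17:34197945-34198244, plus strand) they mark the STAT motif TTCNNNGAA, and in Psmb9 (chr17:34187281-34187580, minus strand) the GC box GGGCGG and the reverse complement of CCAAT. Capitals do not mark every match: Psmb6 also holds the reverse complement of GGGCGG, left in lower case. The GC box thus does not set Psmb9 apart from Psmb6. The Psmb10 promoter, not printed, had no match to any motif searched below.
Psmb5: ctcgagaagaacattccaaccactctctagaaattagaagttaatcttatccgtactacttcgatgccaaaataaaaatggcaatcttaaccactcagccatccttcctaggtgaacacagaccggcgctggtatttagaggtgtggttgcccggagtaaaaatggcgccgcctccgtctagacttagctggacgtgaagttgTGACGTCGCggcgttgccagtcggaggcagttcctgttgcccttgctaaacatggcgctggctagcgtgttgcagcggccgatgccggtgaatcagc
Psmb6: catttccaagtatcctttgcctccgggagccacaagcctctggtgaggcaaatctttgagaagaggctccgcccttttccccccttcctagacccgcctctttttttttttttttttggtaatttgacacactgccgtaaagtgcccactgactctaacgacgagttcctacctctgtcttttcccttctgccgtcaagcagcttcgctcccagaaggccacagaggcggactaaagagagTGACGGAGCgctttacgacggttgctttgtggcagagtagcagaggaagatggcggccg
Psmb8: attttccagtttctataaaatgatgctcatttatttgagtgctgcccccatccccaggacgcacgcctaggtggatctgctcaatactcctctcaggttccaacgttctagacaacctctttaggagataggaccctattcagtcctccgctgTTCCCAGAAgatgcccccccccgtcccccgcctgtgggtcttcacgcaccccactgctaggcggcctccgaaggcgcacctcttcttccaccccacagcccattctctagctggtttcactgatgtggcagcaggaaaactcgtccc
Psmb9: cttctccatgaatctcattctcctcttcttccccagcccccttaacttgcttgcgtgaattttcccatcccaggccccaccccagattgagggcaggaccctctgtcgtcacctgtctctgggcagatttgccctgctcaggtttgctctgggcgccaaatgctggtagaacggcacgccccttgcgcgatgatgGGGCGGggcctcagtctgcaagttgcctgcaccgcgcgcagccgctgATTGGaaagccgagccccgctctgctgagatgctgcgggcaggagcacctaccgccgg

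Of the 40 genes, 33 had a promoter in the RefSeq table, and 5 motifs were searched on both strands. TGACNNNGC was found in 12.4% of all 32851 promoters (14% of all genes with a promoter), in 2 of the 11 core subunit genes with a promoter (Psmb5 and Psmb6), in 2 of 14 regulatory particle genes (Psmc6 and Psmd12) and in 0 of 3 immunoproteasome genes. TTCNNNGAA was found in 8.3% of all promoters, in 0 of 11 core genes, in 1 of 14 regulatory particle genes (Psmd2) and in 1 of 3 immunoproteasome genes (Psmb8). A pair of GAAA repeats with 2 bases between them, as in the interferon-stimulated response element, was found in 3.44% of all promoters and in 0 of 3 immunoproteasome genes. CCAAT was found in 37.4% of all promoters (41.1% of all genes), in 6 of 11 core, 4 of 14 regulatory particle and 1 of 3 immunoproteasome genes. GGGCGG was found in 35.7% of all promoters (38.2% of all genes), in 5 of 11 core, 10 of 14 regulatory particle and 1 of 3 immunoproteasome genes. A match describes these letters and does not show that a factor binds. The starts of Psmb9 and of Tap1, which transports peptides into the endoplasmic reticulum, lie 226 bases apart on opposite strands, so that the Psmb9 window printed above shares 275 bases with that of Tap1.

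The libraries held 13412826 to 13898716 counts in WT/flox progenitors and 13119843 to 16805238 in WT progenitors, and 18368580 to 19449227 in WT/flox muscle and 16892158 to 17079771 in WT muscle. Levels are given as CPM, the count scaled to library size after TMM normalization within a material. Over 8 progenitor markers fixed as a list (Pdgfra, Ly6a, Hic1, Dcn, Cd34, Col1a1, Ly6c1 and Dpt), the summed level ran from 42179 to 45702 CPM in WT/flox progenitors and from 26599 to 33635 CPM in WT progenitors, and 1 of the 8, Col1a1, was called higher in WT/flox cells, where 3.66% of all genes were called. The 8 did not move as one: 5 had a positive log2 fold change and 3 a negative one, down to -0.47. Without overlap, 2 were higher and 1 lower, against 16.9% of all genes in either direction. Over 8 myofibre markers, the sum ran from 109934 to 163298 CPM in WT/flox muscle and from 162431 to 187184 CPM in WT muscle. The deposited sample table names the lysates FAPs, another name for these progenitors, against the labels, which these marker levels follow.

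In WT/flox progenitors, 0 of 38 tested proteasome genes differed from WT at an adjusted p under 0.05, where 3.66% of the 12392 genes tested did. At that background share, 0 calls among 38 genes do not set the family apart. The count of family members with an unadjusted p under 0.05 was also 0, against 12.5% of all genes, and DESeq2 and limma called 0. The genotypes overlapped in all 38 genes, where 16.9% of all genes had groups that did not overlap. The median log2 fold change, WT/flox over WT, was -0.11 over the 14 core subunits, -0.03 over the 17 regulatory particle subunits and -0.27 over the 3 immunoproteasome subunits, against 0.00 over all genes.

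The 14 core subunits summed to 782, 977 and 710 CPM in WT/flox animals 74A1, 72B7 and 74A3, against 778, 754 and 1137 CPM in WT animals 72B8, 74A2 and 73C3. The groups overlapped, and WT animal 73C3 stood above the other libraries. Values below follow the same order of animals. Psma5, an alpha ring subunit, had the lowest log2 fold change of the core, with 28.3, 34.4 and 24.1 CPM in WT/flox cells against 31.8, 28.2 and 45.5 CPM in WT cells (log2 fold change -0.28, SE 0.22, edgeR adjusted p = 0.791). Psmb6, the caspase-like subunit, had 51.0, 81.7 and 46.0 CPM in WT/flox cells against 65.1, 59.6 and 88.2 CPM in WT cells (-0.25, SE 0.24, edgeR adjusted p = 0.876). The ranges of both genes overlapped between genotypes. Psmb4, a beta subunit without an active site, stood at -0.19 (SE 0.23). Psmb7 stood at -0.15 (SE 0.20) and Psmb5 at -0.01 (SE 0.21). Psma7, the only core subunit with a positive value, stood at 0.01 (SE 0.20).

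The 17 regulatory particle subunits summed to 1304, 1308 and 1166 CPM in WT/flox progenitors against 1153, 1174 and 1495 CPM in WT progenitors, again with 73C3 highest and the other 5 libraries close together. The lid subunit Psmd8 had the highest log2 fold change, with 85.4, 124.5 and 97.3 CPM in WT/flox cells against 79.8, 65.3 and 127.1 CPM in WT cells (0.17, SE 0.25, edgeR adjusted p = 0.952). Its groups overlapped, and WT animal 74A2 was low. The base ATPase Psmc1 stood at 0.07 (SE 0.15) and the lid subunit Psmd6 at 0.02 (SE 0.18). At the other end, Psmd14, the deubiquitinase of the lid, stood at -0.11 (SE 0.21), the lid subunit Psmd12 at -0.11 (SE 0.15) and the base scaffold Psmd2 at -0.09 (SE 0.16).

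The 3 immunoproteasome subunits summed to 85.9, 90.3 and 55.04 CPM in WT/flox progenitors against 76.4, 82.4 and 109.8 CPM in WT progenitors. The day 56 library, 74A3, was the lowest and 73C3 the highest for each of the 3 genes, and the genotypes overlapped. Psmb8 had 37.6, 38.1 and 22.2 CPM in WT/flox cells against 34.6, 35.8 and 47.3 CPM in WT cells (log2 fold change -0.27, SE 0.23, edgeR adjusted p = 0.842). Psmb9 had 8.22, 9.14 and 5.46 CPM in WT/flox cells against 7.91, 9.73 and 10.7 CPM in WT cells (-0.31, SE 0.24, edgeR adjusted p = 0.79). Psmb10 had 40.1, 43.1 and 27.4 CPM in WT/flox cells against 33.9, 36.9 and 51.8 CPM in WT cells (-0.15, SE 0.22, edgeR adjusted p = 0.955). Without 74A3, which leaves day 14 libraries only, the median of the 3 was -0.05.

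How closely the data bound a genotype difference can be read from the 95% intervals. In progenitors the interval lay within 2-fold either way for 34 of the 34 subunits tested, against 75.8% of all genes, and within 1.5-fold for 16 of 17 regulatory particle subunits, 9 of 14 core subunits and 0 of 3 immunoproteasome subunits, against 40.8% of all genes. Sign was less settled. Of the 38 genes, 28 had a negative log2 fold change, where 49.8% of all genes did, and 10 a positive one, but 31 had a positive one without WT animal 73C3 and 21 without WT/flox animal 74A3. Animal 73C3 was the highest library for 13 of 14 core and 14 of 17 regulatory particle subunits, against 23.8% of all genes. The same library had the highest sum of the 8 myofibre markers in sorted cells, with 126 CPM, against 19.4 to 25.02 CPM in WT/flox cells and 18.4 and 65.5 CPM in the other WT cells. The part of carried-over fibre RNA in its proteasome levels was not tested.

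**Figure D1:**
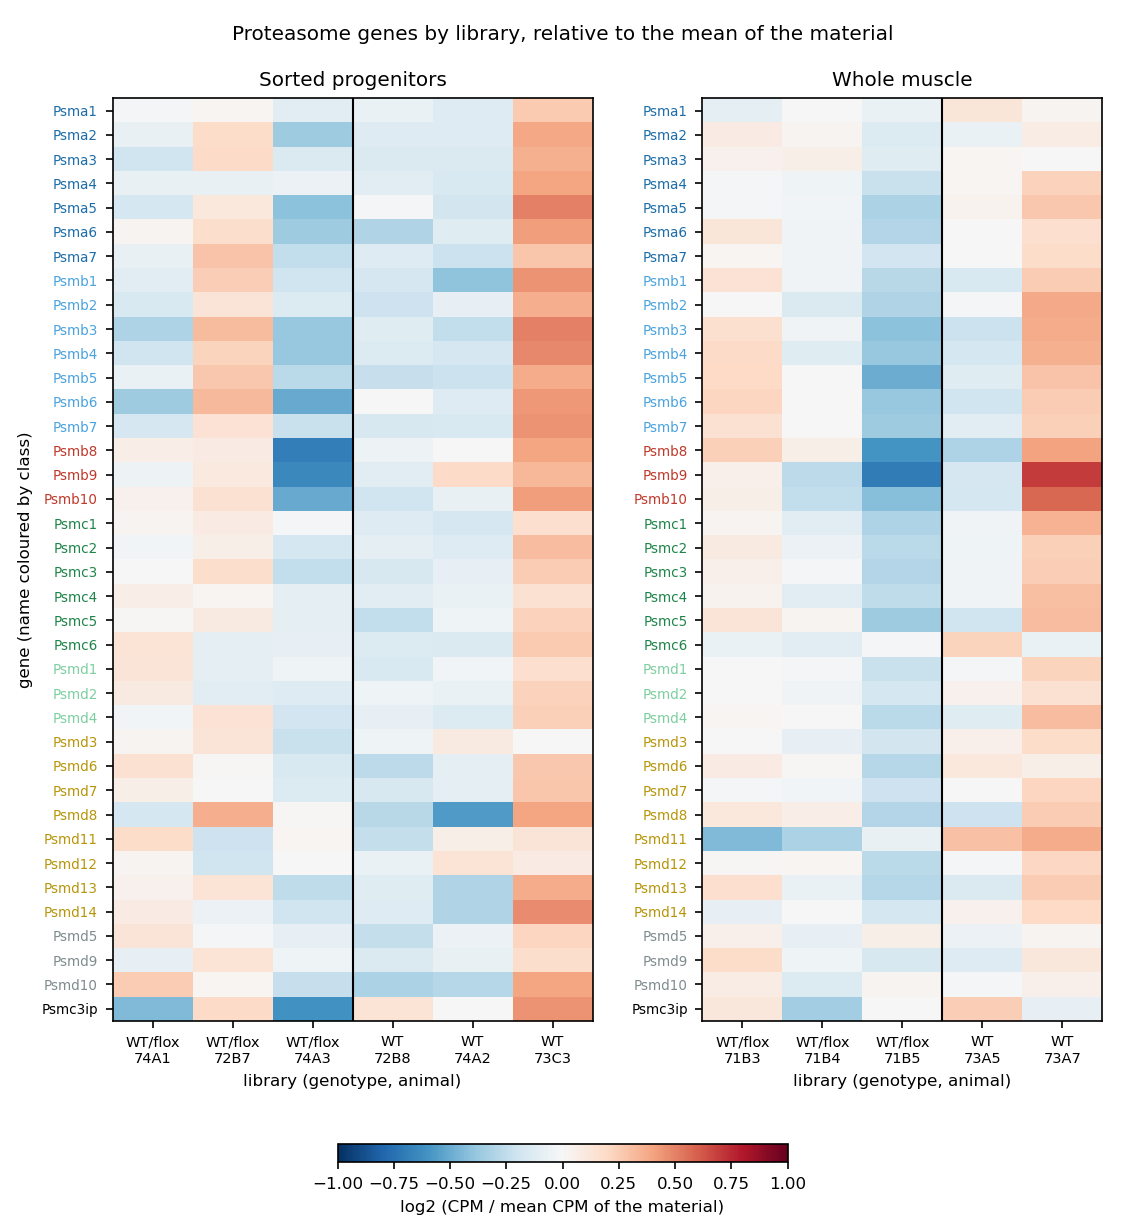
Level of each of the 38 tested proteasome genes in each library, as the log2 ratio to the mean CPM of the material (colour scale), with sorted progenitors on the left, whole muscle on the right and WT/flox libraries left of WT libraries in each panel. Columns stand out more than genotypes do: WT animals 73C3 and 73A7 are high and WT/flox animals 74A3 and 71B5 low across most rows.

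In WT/flox muscle, 0 of 38 proteasome genes were called by edgeR, where 0.727% of 12654 genes were. By unadjusted p under 0.05, 1 was counted, against 9.69% of all genes. DESeq2 called that gene, Psmd11, and limma called 0. All 34 subunits had negative log2 fold changes, where 49.5% of all genes did, with medians of -0.15 over the core, -0.18 over the regulatory particle and -0.44 over the immunoproteasome, against 0.00 over all genes. With total counts as the only scaling, which moved the median of all genes to 0.13, 30 of 38 genes were negative and the medians relative to all genes were -0.16, -0.19 and -0.44. Without WT animal 73A7, 15 of 38 genes were positive and the medians were 0.0095 for the core, -0.067 for the regulatory particle and -0.015 for the immunoproteasome, whereas without WT animal 73A5 the immunoproteasome median was -0.76. In whole muscle, fewer cells of a type and less RNA per cell cannot be told apart. The 8 progenitor markers summed to 1079 to 1274 CPM in WT/flox muscle against 620 and 962 CPM in WT muscle, and 5 endothelial markers to 231 to 249 CPM in WT/flox muscle against 302 and 308 CPM in WT muscle, both without overlap. Gene by gene, 3 of the 8 were higher and 2 of the 5 lower without overlap, where 25.3% of all genes did not overlap in either direction. Called by edgeR were 0 of the 8 and 0 of the 5, where 0.727% of all genes were. The part of these cells in the proteasome levels was not tested.

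Psmd11, a lid subunit known from human embryonic stem cells as a factor that raises proteasome assembly, had 67.4, 73.4 and 86.8 CPM in WT/flox muscle of animals 71B3, 71B4 and 71B5, against 112 and 118 CPM in WT muscle of animals 73A5 and 73A7. The groups did not overlap, as was true of 25.3% of all genes. The log2 fold change was -0.60 (SE 0.15, 95% interval -0.95 to -0.25), with an adjusted p of 0.189 by edgeR and of 0.0346 by DESeq2. Animal 71B5, the lowest library for most subunits, was the highest WT/flox library for Psmd11, as it was for Psmc6 and Psmd5. The difference in genotype effect between progenitors and muscle was 0.56 for Psmd11 (SE 0.25, edgeR adjusted p = 0.552), and 0 of 38 genes were called for that difference, where 0.769% of 13781 genes were (unadjusted p under 0.05 for 1 of 38, against 8.71% of all genes; DESeq2 0 calls, limma 0 calls). In progenitors Psmd11 stood at 0.01 (SE 0.17).

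The 14 core subunits summed to 2102, 1905 and 1584 CPM in WT/flox muscle against 1839 and 2280 CPM in WT muscle, and the 17 regulatory particle subunits to 3068, 2943 and 2554 CPM against 2976 and 3525 CPM. The groups overlapped for both sums, with 71B5 lowest and 73A7 highest. Psmb2, a beta subunit without an active site, had 86.0, 77.4 and 69.5 CPM in WT/flox muscle against 84.5 and 112 CPM in WT muscle (log2 fold change -0.34, SE 0.17, edgeR adjusted p = 0.597), the lowest of the core. The alpha subunits Psma5 and Psma4 followed at -0.27 (SE 0.16) and -0.22 (SE 0.14), and their WT/flox libraries, at up to 40.1 and 112 CPM, lay below their WT libraries, at 41.4 CPM and 115 CPM or more. Among base ATPases, Psmc1 stood at -0.29 (SE 0.17) and Psmc4 at -0.24 (SE 0.16). Groups without overlap were seen for 8 of 38 genes, Psma1, Psma4, Psma5, Psmd2, Psmd3, Psmd7, Psmd11 and Psmd14, each lower in WT/flox muscle, where 12.9% of all genes were lower without overlap.

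The catalytic subunits Psmb5, Psmb6 and Psmb7 stood at -0.17, -0.08 and -0.13 in muscle (SE 0.23, 0.22 and 0.19). Psmb8 had 7.43, 6.56 and 4.16 CPM in WT/flox muscle against 5.09 and 8.33 CPM in WT muscle (log2 fold change -0.15, SE 0.31). Psmb9 had 2.58, 2.08 and 1.53 CPM in WT/flox muscle against 2.21 and 4.04 CPM in WT muscle (-0.60, SE 0.34, edgeR adjusted p = 0.658). Psmb10 had 15.4, 12.4 and 11.0 CPM in WT/flox muscle against 13.05 and 22.0 CPM in WT muscle (-0.44, SE 0.25, edgeR adjusted p = 0.652). In each of the 3 genes the groups overlapped, and WT animal 73A7 was the highest library.

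The 95% interval lay within 2-fold either way for 32 of the 34 subunits in muscle, against 77.8% of all genes. The exceptions were Psmb9 and Psmb10. WT animal 73A7 was the highest library for 11 of 14 core and 15 of 17 regulatory particle subunits, against 29.1% of all genes. WT/flox animal 71B5 was the lowest for 13 of 14 core and 15 of 17 regulatory particle subunits, against 24.7% of all genes. The same animal 71B5 had the lowest sum of myofibre markers, 109934 CPM, and the TMM factor farthest from 1, 1.14, and the part of either in its proteasome levels was not tested. WT animal 73A7 had the highest sum of 13 immune cell markers, 160 CPM, against 81.8 to 130 CPM in WT/flox muscle and 37.4 CPM in the other WT muscle. The markers did not move as one. Of the 7 tested by genotype in muscle, 6 had a positive log2 fold change and 1 a negative one, of -2.39. The part of immune cells in the Psmb8, Psmb9 and Psmb10 levels of 73A7 was not tested.

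**Figure D2:**
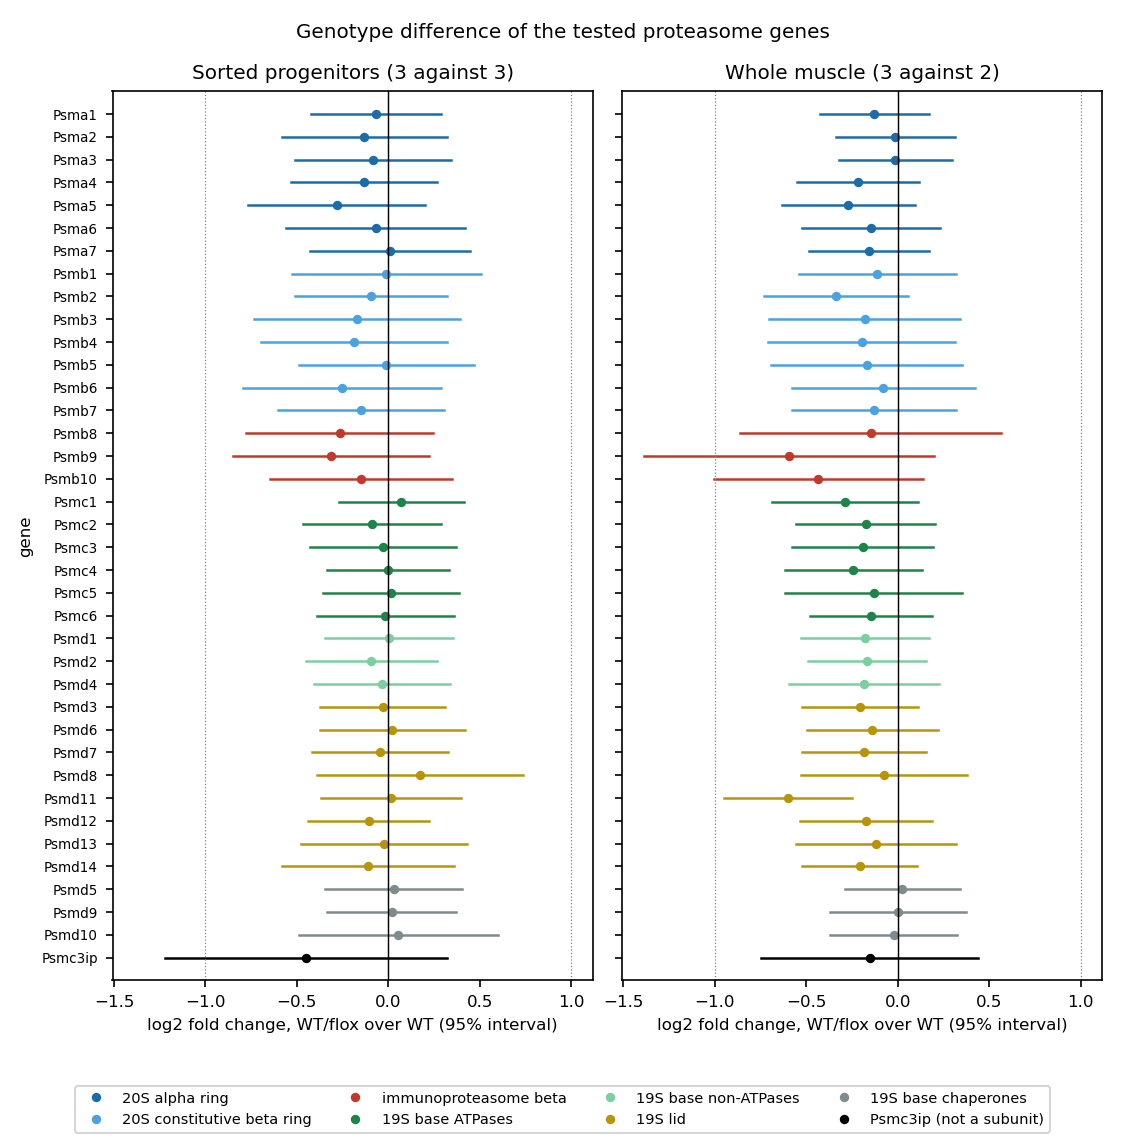
Log2 fold change of WT/flox over WT for the 38 tested proteasome genes, with the 95% interval as a bar and dotted lines at 2-fold either way, in progenitors (3 against 3 animals) and whole muscle (3 against 2 animals). The values lie near 0 in progenitors and below 0 for 36 of 38 genes in muscle, and the one interval that leaves 0 out is that of Psmd11 in muscle.

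Between the materials, the constitutive subunits and the immunoproteasome subunits moved in opposite directions. In WT progenitors against WT muscle, 36 of 38 genes were called, where 76.1% of 13781 genes were: 33 were lower (37.5% of all genes) and 3 were higher (38.6%). The lower ones included 14 of 14 constitutive core and 17 of 17 regulatory particle subunits. The 3 higher ones were Psmb8, Psmb9 and Psmb10. Scaled jointly, the libraries of the materials did not overlap in any of these 34 genes: 31 of 31 lay lower, where 39.8% of all genes did, and 3 of 3 higher, where 41.2% did. Median log2 fold changes were -1.58 for the core, -1.98 for the regulatory particle and 1.04 for the immunoproteasome, against 0.09 over all genes. Relative to the median of all genes they were -1.66, -2.06 and 0.95 with TMM scaling, and -1.67, -2.06 and 0.96 with total counts only, which moved the median of all genes to 0.75. Material, day after tamoxifen and preparation change together here and cannot be told apart. Sex differed in part as well, since WT progenitors included female 74A2 and WT muscle came from males only.

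As a share of all counts before any scaling, the 14 core subunits took 0.0778% to 0.115% in WT progenitors and 0.180% to 0.211% in WT muscle, and the 3 immunoproteasome subunits 0.00774% to 0.0111% in WT progenitors and 0.00199% to 0.00317% in WT muscle. The ranges did not overlap in either class. Psmb7 fell the most of the family, to 61.0, 61.3 and 93.0 CPM in WT progenitors, against 329 and 419 CPM in WT muscle (log2 fold change -2.94, SE 0.25, edgeR adjusted p = 1.02e-07). The other constitutive catalytic subunits fell as well, with a log2 fold change of -2.22 for Psmb5 (SE 0.26) and -2.00 for Psmb6 (SE 0.28). Their levels in WT progenitors ran from 31.0 to 46.9 CPM and from 59.6 to 88.2 CPM, against 99.2 to 132 CPM and 164 to 223 CPM in WT muscle. Psma5 fell least among the core subunits, at -0.91 (SE 0.23), and its call was lost with total counts only (-0.26, edgeR adjusted p = 0.271). In the regulatory particle, log2 fold changes ran from -1.26 for Psmd14 (SE 0.22) to -2.33 for Psmc1 (SE 0.19).

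Psmb8 rose to 34.6, 35.8 and 47.3 CPM in WT progenitors, against 5.09 and 8.33 CPM in WT muscle (log2 fold change 1.99 in the joint fit, SE 0.33, edgeR adjusted p = 7.18e-05). Psmb9 had 7.91, 9.73 and 10.7 CPM in WT progenitors against 2.21 and 4.04 CPM in WT muscle (1.04, SE 0.33, edgeR adjusted p = 0.0109), and without WT muscle animal 73A5 its adjusted p was 0.132. Psmb10 had 33.9, 36.9 and 51.8 CPM in WT progenitors against 13.05 and 22.0 CPM in WT muscle (0.67, SE 0.28, edgeR adjusted p = 0.045). All 3 separated the materials without overlap, yet the Psmb10 call did not hold with RLE scaling (adjusted p = 0.0835), with DESeq2 (adjusted p = 0.0852), or without animal 73C3 or 73A5 (edgeR adjusted p = 0.184 and 0.356). The CPM above were scaled within each material, and the joint fit scaled the materials to each other.

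Of the 3 base chaperones, 2 were lower in WT progenitors, where 37.5% of all genes were, a count that rests on few genes. Psmd5 had 25.3, 28.7 and 34.5 CPM in WT progenitors against 19.3 and 20.4 CPM in WT muscle, and in the joint scaling, in which the groups overlapped, its log2 fold change was 0.01 (SE 0.18, edgeR adjusted p = 0.969), but 0.67 with total counts only (edgeR adjusted p = 0.00422). Psmd9 and Psmd10 fell, at -0.66 (SE 0.18) and -0.99 (SE 0.25), and neither call held with total counts only, where Psmd9 stood at 0.01. Psmc3ip, the gene that is no subunit, stood at -0.67 (SE 0.33, edgeR adjusted p = 0.0749). Psma8, the core subunit of testis, and Psmb11, that of thymic epithelium, were not tested: Psma8 had 0 to 4 counts and Psmb11 0 or 1 count per library.

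**Figure D3:**
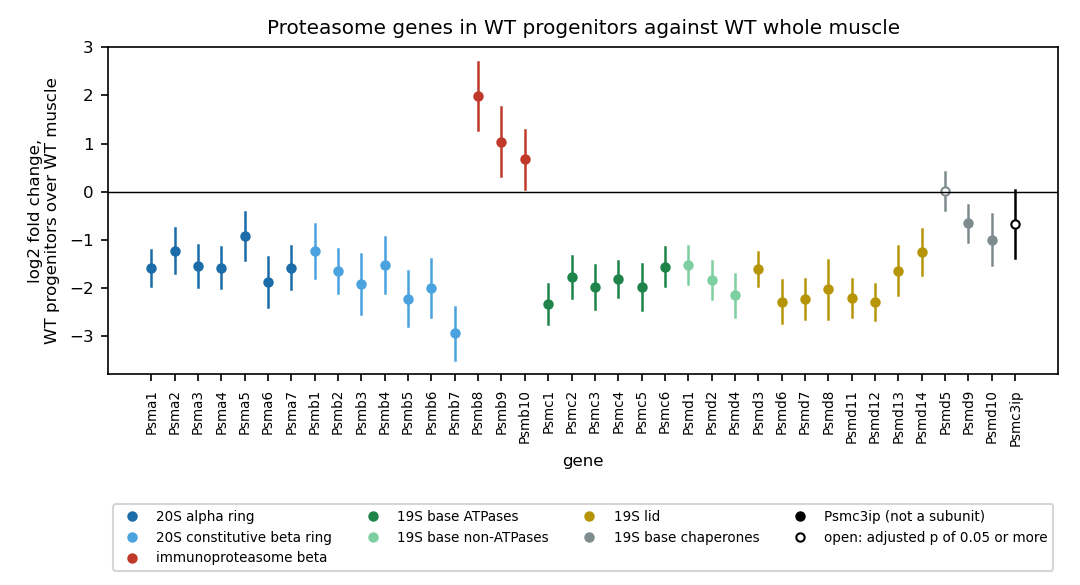
Log2 fold change of WT progenitors over WT muscle for the 38 tested genes from the joint edgeR fit, with 95% intervals, filled points for an adjusted p under 0.05 and open points otherwise. The 3 immunoproteasome subunits lie above 0 and the 31 constitutive core and regulatory particle subunits below it.

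**Figure D4:**
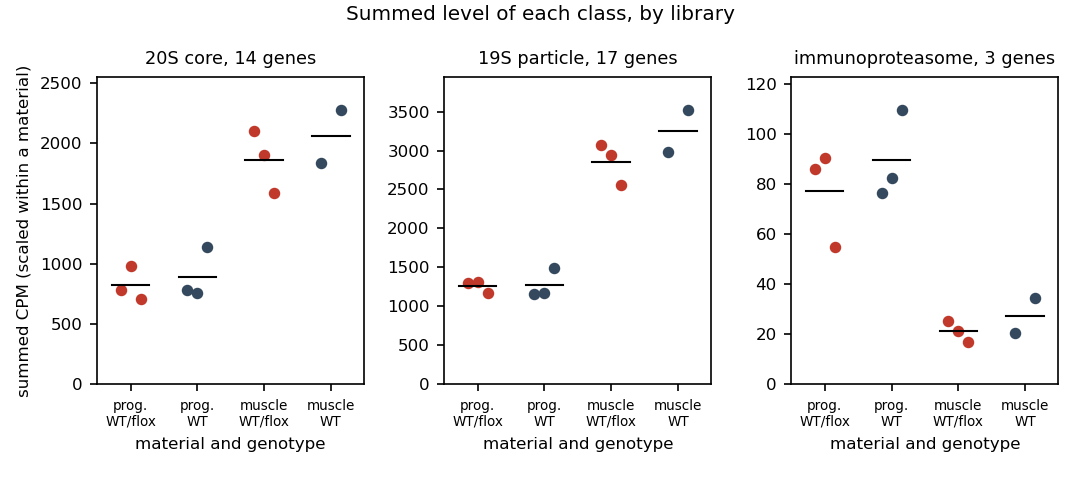
Summed CPM of the 14 core, 17 regulatory particle and 3 immunoproteasome subunits in each library (points, linear axes from 0), with the mean of each group as a bar. In both genotypes muscle lies above progenitors for the first 2 classes and below them for the third, and the genotypes overlap within each material.

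The exchange of catalytic subunits can be set within a library as the ratio of each immunoproteasome subunit to the constitutive one it replaces, per kilobase of annotated exon. Such a ratio does not depend on the scaling of the library. Psmb8 stood at 23.8% ± 4.62 of Psmb5 in WT/flox progenitors and 28.9% ± 1.89 in WT progenitors (SD, n = 3 each), and at 1.56% ± 0.0948 in WT/flox muscle (SD, n = 3) and 1.52% ± 0.226 in WT muscle (SD, n = 2). Psmb9 stood at 6.68% ± 1.37 of Psmb6 in WT/flox progenitors and 6.92% ± 1.23 in WT progenitors, and at 0.572% ± 0.0310 in WT/flox muscle and 0.808% ± 0.164 in WT muscle. Psmb10 stood at 114% ± 19.3 of Psmb7 in WT/flox progenitors and 115% ± 5.23 in WT progenitors, and at 7.61% ± 0.506 in WT/flox muscle and 9.24% ± 1.82 in WT muscle.

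For each pair the progenitor libraries lay above the muscle libraries without overlap. The mean ratio was 15.3-fold higher in progenitors than in muscle for Psmb8 to Psmb5 in WT/flox mice and 19-fold in WT mice, 11.7-fold and 8.57-fold for Psmb9 to Psmb6, and 14.96-fold and 12.4-fold for Psmb10 to Psmb7. The progenitor libraries of the genotypes overlapped for Psmb9 to Psmb6 and Psmb10 to Psmb7. In muscle the genotypes overlapped for Psmb8 to Psmb5 and met at the same value for Psmb10 to Psmb7. For Psmb9 to Psmb6 they did not overlap, with 0.545% to 0.606% in WT/flox muscle against 0.692% and 0.924% in WT muscle. That pair rests on 32 to 63 Psmb9 counts per muscle library. By level alone, 25.3% of all genes had groups without overlap in muscle. For Psmb8 to Psmb5, the lowest were WT/flox animals 74A3 (19.6%) and 72B7 (23.1%), and WT/flox animal 74A1 (28.8%) lay inside the WT range of 26.8% to 30.4%. An exact two-sided permutation test cannot give a p below 0.1 with 3 against 3 libraries or below 0.2 with 3 against 2, and none was made. The fold between materials does not depend on the length used, but the ratios do: with the principal transcript as length, Psmb8 stood at 60.1% of Psmb5 and Psmb10 at 50.6% of Psmb7 in WT progenitors.

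**Figure D5:**
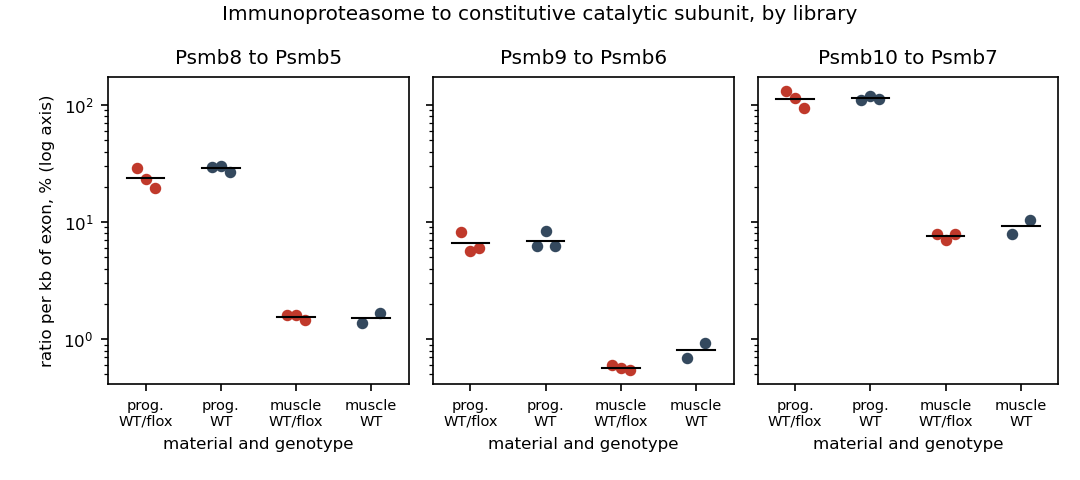
Ratio of each immunoproteasome subunit to the constitutive catalytic subunit it replaces, per kilobase of annotated exon, in percent on a log axis, for each library (points) with the group mean as a bar. Progenitor and muscle libraries separate in all 3 pairs. With this length Psmb10 lies between 94.1% and 133% of Psmb7 in progenitors, and with the principal transcript as length between 41.5% and 58.5%.

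Per kilobase of annotated exon, levels within a class differed severalfold. In progenitors Psmb4 was the highest constitutive beta subunit, at 56.1 ± 12.5 CPM per kb in WT/flox cells and 63.9 ± 17.2 CPM per kb in WT cells (SD, n = 3 each). Psma3 was the lowest alpha subunit in all 4 groups, at 9.57 ± 1.44 CPM per kb in WT/flox progenitors and 10.1 ± 2.12 CPM per kb in WT progenitors. Psmd11 was the lowest lid subunit, at 5.83 ± 0.778 CPM per kb in WT/flox progenitors and 5.77 ± 0.758 CPM per kb in WT progenitors. Psmb10 was the highest and Psmb9 the lowest immunoproteasome subunit in all 4 groups. These ranks held with the longest and with the principal transcript as length, whereas the highest alpha, ATPase and lid subunits depended on the length.

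Some of these levels rest on reads that may not be unique. Of the 43-base words of its longest transcript, matching the read length, Psmb5 shared 64.1% with other annotated transcripts, including Psmb5-ps, and Psma5 shared 59.4%. At least 20% were shared in 7 of the 40 genes and none in 18, among them Psmb9 and Psmb10. Exons on the opposite strand overlapped 11 of the 40, including Psmb7 (405 bases with Nek6), Psmb8 (498 bases with Gm20496) and Psmb9 (212 bases with Tap1). The strand setting of the counting was not given in the sources used here, so reads of such pairs cannot be told apart. Psmb5 and the genes of these pairs are uncertain to that extent.

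Among the other genes of the pathway, 0 of 10 further subunits and core assembly factors, 0 of 5 activators and inhibitors, 0 of 8 deubiquitinases and shuttle factors, 0 of 8 transcriptional regulators and 0 of 10 ubiquitin and p97 genes tested were called by genotype in progenitors, where 3.66% of all genes were. In muscle the counts were 0 for the same lists, where 0.727% of all genes were called, and such counts do not set the lists apart. Among the 8 regulators, Maff and Bach1, named after their values were seen, were higher in WT/flox muscle without overlap and had an unadjusted p under 0.05 (log2 fold change 0.84, SE 0.19, edgeR adjusted p = 0.13 for Maff, and 0.55, SE 0.21, edgeR adjusted p = 0.419 for Bach1). Groups without overlap were seen in 25.3% of all genes, and such a p in 9.69%. That p was also met by 1 of the 10 further subunits and assembly factors and 1 of the 10 ubiquitin and p97 genes. These counts rest on few genes. Pomp, the chaperone that matures the core, had 46.7 ± 4.84 CPM in WT/flox progenitors and 47.8 ± 10.9 CPM in WT progenitors (SD, n = 3 each). Nfe2l1 had 249 ± 14.5 CPM in WT/flox progenitors and 260 ± 23.6 CPM in WT progenitors. Its relative Nfe2l2, which responds to oxidative stress, had 176 ± 25.7 CPM and 160 ± 26.0 CPM in the same groups. Psme1 and Psme2, the activators that cap the core under interferon, had 59.4 ± 11.3 and 41.0 ± 5.31 CPM in WT/flox progenitors and 67.3 ± 9.68 and 45.6 ± 11.6 CPM in WT progenitors.

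Over the same 5 lists, WT progenitors were set against WT muscle, a comparison in which 76.1% of all genes were called, 38.6% higher and 37.5% lower. The shares called in either direction lie near or below that background or rest on few genes, so those counts do not set the lists apart. By direction, lower calls outnumbered higher ones in each list, on few genes, and no test of a list was made. Of the 10 tested further subunits and assembly factors, 8 were lower and 0 higher in WT progenitors than in WT muscle, with Pomp at -1.89 (SE 0.22), Psmg2 at -1.43 (SE 0.20), and the ubiquitin receptor Adrm1 at -2.01 (SE 0.20). Of the 5 activators and inhibitors, Psme4 and Psme3 were lower, at -2.62 (SE 0.23) and -1.03 (SE 0.19), and with total counts only Psme3 was not called (-0.38, edgeR adjusted p = 0.0618). Psme1 and Psme2 were not called (-0.14, SE 0.22, and 0.45, SE 0.26), and with total counts only both were higher, at 0.52 and 1.10. The proteasome-bound deubiquitinase Uchl5 stood at -2.49 (SE 0.17) and the shuttle factor Ubqln2 at 0.96 (SE 0.16), the only higher one of 8. Of 10 ubiquitin and p97 genes, 6 were lower and 1 higher. The segregase Vcp stood at -1.54 (SE 0.19), with its cofactors Nploc4 and Ufd1l at -1.66 and -1.51 (SE 0.17 each), and the ubiquitin-activating enzyme Uba6 at 2.23 (SE 0.40).

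The regulators split. Nfe2l1 fell to 260 ± 23.6 CPM in WT progenitors (SD, n = 3), against 1179 ± 14.99 CPM in WT muscle (SD, n = 2), a log2 fold change of -2.75 (SE 0.18, edgeR adjusted p = 7.63e-09). Keap1, which holds Nfe2l2 for degradation, fell too (-1.33, SE 0.17), whereas Nfe2l2 rose (1.40, SE 0.22, edgeR adjusted p = 4.62e-05), with 160 ± 26.0 CPM in WT progenitors against 41.1 ± 9.01 CPM in WT muscle. Of the small Maf partners of both factors, Maff rose (2.83, SE 0.22) and so did Mafk (0.94, SE 0.20), and Mafg fell (-0.71, SE 0.16). The CPM of this paragraph were scaled within each material, whereas the log2 fold changes come from the joint fit, so the 2 do not match exactly.

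Genes of interferon response and antigen presentation were read beside the immunoproteasome subunits: of 17 tested, 14 were higher and 1 lower in WT progenitors than in WT muscle, where 38.6% of all genes were higher and 37.5% lower. The summed level of the 17 ran from 1460 to 1598 CPM in WT/flox progenitors and 1601 to 1980 CPM in WT progenitors, and from 305 to 328 CPM in WT/flox muscle and 312 to 407 CPM in WT muscle. Tap1, which shares its promoter region with Psmb9, stood at 2.12 (SE 0.25), Tap2 at 2.05 (SE 0.19) and the peptide loading factor Tapbp at 2.34 (SE 0.22). The transcription factors Irf1 and Irf9 stood at 2.76 (SE 0.27) and 2.04 (SE 0.17), and the interferon-induced GTPase gene Gbp2 at 2.73 (SE 0.21). The lower one was Irf8, a factor of myeloid cells, at -3.54 (SE 0.35).

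Markers of immune cells, which express these genes, were read in the same libraries. Of 13 immune cell markers, 8 were tested between the materials. Of these, 7 were lower in WT progenitors and 0 higher, where 37.5% of all genes were lower and 38.6% higher. Ptprc (CD45), the marker used to deplete such cells, stood at -2.90 (SE 0.53). The sum of the 13 ran from 7.81 to 22.1 CPM in WT/flox progenitors and 10.1 to 15.9 CPM in WT progenitors, against 81.8 to 130 CPM in WT/flox muscle and 37.4 to 160 CPM in WT muscle, and 2 to 5 of the 13 were at 0 in each progenitor library. The part of immune cells in the levels of Psmb8, Psmb9 and Psmb10 was not tested.

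Irf8 was the only gene of the pathway lists called by genotype. In progenitors that was 1 of the 17 genes of its list, where 3.66% of all genes were called. At that share, 1 call does not set the list apart. In muscle 0 of the 17 were called, where 0.727% of all genes were. Irf8 had 48, 58 and 27 counts in WT/flox progenitors against 12, 12 and 8 counts in WT progenitors, without overlap (log2 fold change 2.19, SE 0.42, edgeR adjusted p = 0.0193). The call was lost without WT animal 73C3 (1.94, edgeR adjusted p = 0.053), WT/flox animal 74A1 (2.13, edgeR adjusted p = 0.0698) or WT/flox animal 72B7 (1.949, edgeR adjusted p = 0.0969). In muscle, Irf8 stood at -0.55 (SE 0.20, edgeR adjusted p = 0.388). Over the 17 genes in progenitors, the log2 fold change of WT/flox over WT was negative for 11 and positive for 6. Their median was -0.06, and 49.8% of all genes were negative. Irf1 and Tap1, picked from the 17, stood at -0.26 (SE 0.23) and -0.18 (SE 0.20), and neither was called.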

How the data were processed

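Sorted progenitors and whole muscle were sequenced with a stranded mRNA kit and paired reads of 43 bases (labels' protocols). Of the software, bcl2fastq 2.20, Bowtie and STAR are named, with the build mm10, per the submitters' processing notes. Which program counted reads, and with which strand option, is not given in the sources used here. Values are the authors' deposited counts per gene symbol, 1 table for each material, with no normalization. Each column named 1 labelled animal, so p-values measure the spread between animals.

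Genotypes were compared within each material with edgeR 4.0.16 (R 4.3.3): filterByExpr with a count minimum of 10, TMM scaling and a two-sided quasi-likelihood F test with robust dispersion, with Benjamini-Hochberg adjustment over all genes tested. An adjusted p under 0.05 counts as called. A joint fit of the 4 groups gave the contrast of WT progenitors with WT muscle and the difference between the genotype effects. SEs are implied by the F statistic, and intervals are 95% t intervals. The procedure was checked on simulated data. DESeq2 1.42.0, limma 3.58.1 and other settings were tried as alternatives. Lengths, overlaps and shared words come from GENCODE M21 (GRCm38), which matched 40 of 40 members, and promoters from RefSeq. The depth of each library limits the precision of genes with few counts, such as Irf8.

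The members, gene lists and alternatives were chosen with earlier results of these data known. Genes named with values are the catalytic pairs, the members with the largest positive and negative fold changes in the core and the regulatory particle, the highest and lowest member per length in a class, up to 6 called genes per pathway list by adjusted p, and Nfe2l1, Nfe2l2, Pomp, Psme1, Psme2 and Ctnnb1; in the account of the materials, Psma5, Psmc1, Psmd14, Tap1, Mafg, Ptprc and Psmd5 to Psmd10 were named after their values were seen.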

Additional observations from a re-analysis of the deposited data

Results flagged for a closer look

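The genotype effect on Irf8 differed between the materials: the log2 fold change of WT/flox over WT was higher in progenitors than in muscle by 2.69 (SE 0.45, edgeR adjusted p = 0.0102, joint fit of 11 libraries). Without WT muscle animal 73A7 the difference was 2.65 with an adjusted p of 0.0544. Irf8 was higher in 3 of 3 WT/flox progenitor libraries than in any WT one, on 8 to 58 counts per library. It was the 1 gene called among the 17 of its list, where 0.769% of all genes were called for this difference. Material, day and preparation cannot be told apart in this difference, and females were among the progenitor animals only. No member of the proteasome family differed between the materials in its genotype effect by the same test.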

How the results depend on the processing

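Signs of the small genotype differences turned with single libraries, and the cause was not tested. In progenitors without WT animal 73C3, log2 fold changes became positive by a move larger than the SE for 10 named genes, whose values over the left-out libraries ran as follows: Pomp (-0.15 to 0.17), Psma4 (-0.24 to 0.068), Psmb1 (-0.18 to 0.28), Psmb2 (-0.21 to 0.094), Psmb4 (-0.38 to 0.058), Psmb5 (-0.17 to 0.22), Psmb7 (-0.27 to 0.084), Psmd13 (-0.17 to 0.20), Psmd14 (-0.26 to 0.16) and Psme2 (-0.26 to 0.077). In muscle the same happened without WT animal 73A7 for 9 named genes: Pomp (-0.41 to 0.086), Psmb1 (-0.30 to 0.10), Psmb4 (-0.44 to 0.089), Psmb6 (-0.28 to 0.16), Psmb8 (-0.46 to 0.24), Psmc5 (-0.36 to 0.14), Psmd13 (-0.31 to 0.092), Psmd8 (-0.29 to 0.17) and Psme2 (-0.53 to 0.046). Without 73A7 the difference of the genotype effects became negative for 2 genes: Psmb10 (-0.16 to 0.54) and Psmb9 (-0.23 to 0.58). Between the materials with total counts only, Psmd9 turned to 0.0058 and Psme1 to 0.52. The count of members called was 0 in every genotype fit except DESeq2 in muscle, where it was 1, and 34 to 36 between the materials when 1 library was left out. With the longest transcript as length, Psmb8 stood at 51.3% of Psmb5, Psmb9 at 4.53% of Psmb6 and Psmb10 at 124% of Psmb7 in WT progenitors, and with the principal transcript, chosen after seeing the data, the first and the last stood at 60.1% and 50.6%.

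Over all genes, 454 were called in progenitors (755 by DESeq2, 262 to 483 with 1 library left out) and 92 in muscle (267 by DESeq2, 139 unfiltered, 54 with total counts only, and from 0 without WT/flox animal 71B5 to 239 without WT animal 73A5), and 106 for the difference of effects (272 by DESeq2, 54 to 114 with 1 library left out). Replicate numbers of the deposited sample table were not used as pairs in the main fits. Deviations of same-numbered libraries correlated at 0.281, -0.002 and -0.194 across genes in progenitors, and at -0.047 and -0.559 in muscle. So few values cannot decide whether the samples were paired. Number 1 joins the female animals 74A1 and 74A2, and number 2 the males 72B7 and 72B8. Names of muscle animals begin with 71B in WT/flox and 73A in WT. Genotype cannot be told apart from what that part of the name stands for. With the replicate numbers as a block, added after seeing the data, 491 genes were called in progenitors and 178 in muscle, with 0 members in either. A fit with sex as a covariate called 546 genes in progenitors, with 0 members. With 2 WT muscle libraries, leaving 1 out assumes that the lone library varies like the others.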
